A study of Mus musculus with 6 samples.

Results

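The cortical layer identity transcription factors examined here were 9 genes, Tbr1, Sox5, Fezf2, Bcl11b, Foxp2, Cux1, Cux2, Pou3f2 and Rorb, out of 53801 in a count table from embryonic mouse brain. They were chosen by name, with earlier results of these data known. The table listed 8 of the 9 under these symbols. Bcl11b was found by its gene ID (ENSMUSG00000048251), because the table gives that ID the outdated symbol Rit1, which 2 of its genes carry, the other being the true Rit1 on chromosome 3. All 9 passed the filter of at least 10 counts summed over the embryos.

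Polyadenylated RNA was sequenced from 6 whole brains of C57BL/6 mouse embryos at stage E16.5, 3 Bahd1-KO (Bahd1-/-) and 3 Bahd1-WT (Bahd1+/+). BAHD1 is a scaffold protein of repressive chromatin, and the comparison asked whether its loss alters gene expression before birth. The knockout was carried from the germ line, by crosses of heterozygous parents, and was not limited to the brain. The methods do not say whether the embryos shared litters, and the p-values below measure the spread between these 6 embryos.

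The neocortex is built from the inside out. Deep-layer neurons (layers V and VI) are born first and upper-layer neurons (layers II to IV) later, each taking up its identity under a small set of transcription factors that repress one another. Tbr1 and Sox5 are known for layer VI and subplate neurons that project to the thalamus, Fezf2 and Bcl11b (CTIP2) for layer V neurons that project to the spinal cord and brainstem, and Foxp2 for layer VI. Cux1, Cux2 and Pou3f2 (BRN2) mark upper-layer neurons and their progenitors, and Rorb marks layer IV. None of these genes is restricted to the cortex: Bcl11b and Foxp2 are also strong in the striatum, Foxp2 and Rorb in the thalamus, and Cux1 in many dividing cells. The RNA here came from whole brain, so each value sums over all these sites.

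The start of a gene was compared between a factor that was scarce in 1 embryo and a factor that was not (values below). Of the 9 factors, 8 had a RefSeq promoter window on GRCm38.p6, and for Pou3f2 and Rorb the window ended exactly at the gene start of the GENCODE M21 annotation, so these 2 are shown. Each is the 250 bases before the start, on the reverse strand, at chr4:22488367-22488616 for Pou3f2 and chr19:19111197-19111446 for Rorb. Capitals mark matches on either strand to the CCAAT box (CCAAT) and the GC box (GGGCGG).
Pou3f2: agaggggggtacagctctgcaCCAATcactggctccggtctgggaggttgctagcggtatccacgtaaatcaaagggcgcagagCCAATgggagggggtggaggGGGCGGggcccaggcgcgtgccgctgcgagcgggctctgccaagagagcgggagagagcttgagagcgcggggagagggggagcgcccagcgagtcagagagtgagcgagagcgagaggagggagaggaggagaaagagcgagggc
Rorb: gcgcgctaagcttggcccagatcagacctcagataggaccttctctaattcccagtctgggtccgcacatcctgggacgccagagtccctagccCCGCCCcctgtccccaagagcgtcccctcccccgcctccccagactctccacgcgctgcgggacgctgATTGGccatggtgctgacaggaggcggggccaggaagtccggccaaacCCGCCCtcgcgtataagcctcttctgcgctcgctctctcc
Both windows were rich in GC (66.8% for Pou3f2 and 66.0% for Rorb) and had an observed-to-expected CpG ratio of 0.761 and 0.696. A GC of at least 50% with a ratio of at least 0.6 was met by 31.0% of all 32851 mouse promoter windows. Pou3f2 held 2 CCAAT boxes and 1 GC box, and Rorb held 1 CCAAT box and 2 GC boxes. A CCAAT box was present in 33.8% of all windows and a GC box in 32.7%, while TATAAA (12.4% of windows) and the homeodomain core TAATTA (4.84%) were in neither. These matches are letters in a window, and no binding was measured.

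The libraries held 61724000 to 91782802 counts. Bahd1, the targeted gene (ENSMUSG00000040007), showed 2, 10 and 6 counts for the Bahd1-KO embryos, against 1971, 3102 and 3470 for the Bahd1-WT embryos, a log2 fold change of -8.40 (SE 0.606, adjusted p 0.0462, edgeR quasi-likelihood test with Benjamini-Hochberg adjustment), so each library matched its genotype label. Among 24739 genes tested, Bahd1 was the 1 gene past the adjusted threshold of 0.05, and it missed that threshold when any embryo other than Bahd1-KO replicate 3 was left out (log2 fold change -8.78 to -8.01). Bahd1-KO replicate 3 stood apart in composition. Nuclear protein-coding genes took 49.4% of its counts, against 92.3 to 95.6% in the other 5, while the ribosomal RNA locus Gm42418 took 22.6% and the mitochondrial ribosomal RNA genes 22.1%, against at most 0.394% and 0.279%. Results are therefore given with and without this embryo, and "the other 5" below means all embryos except it. Genes are compared between embryos in CPM (counts scaled to a total of 1000000 per embryo), or, where stated, in CPM scaled with TMM factors, which correct for composition (the factor of Bahd1-KO replicate 3 was 0.684 and the other 5 lay between 1.04 and 1.107).

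Of the deep-layer factors, Bcl11b and Tbr1 were the most abundant for their length, and no factor of the 9 differed between genotypes beyond the spread of the embryos. In CPM per kilobase of exon, the only scale on which genes are compared with each other here, the Bahd1-WT embryos had 41.5 ± 3.01 of Bcl11b, 40.0 ± 3.55 of Tbr1 and 33.6 ± 5.19 of Pou3f2 (SD, n = 3). Bcl11b overlapped with Tbr1, and Tbr1 with Pou3f2. Fezf2 (14.7 ± 6.01), Foxp2 (11.4 ± 2.61), Cux1 (10.3 ± 0.927), Sox5 (8.90 ± 0.735) and Cux2 (7.13 ± 1.52) followed on the same scale, each overlapping with the next, and Rorb came last at 3.56 ± 0.556. Gaps without overlap between single Bahd1-WT embryos lay between Pou3f2 and Fezf2 and between Cux2 and Rorb. The exon length joins all annotated isoforms, so a gene expressed mainly from a short isoform is placed too low in this order.

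**Figure D1:**
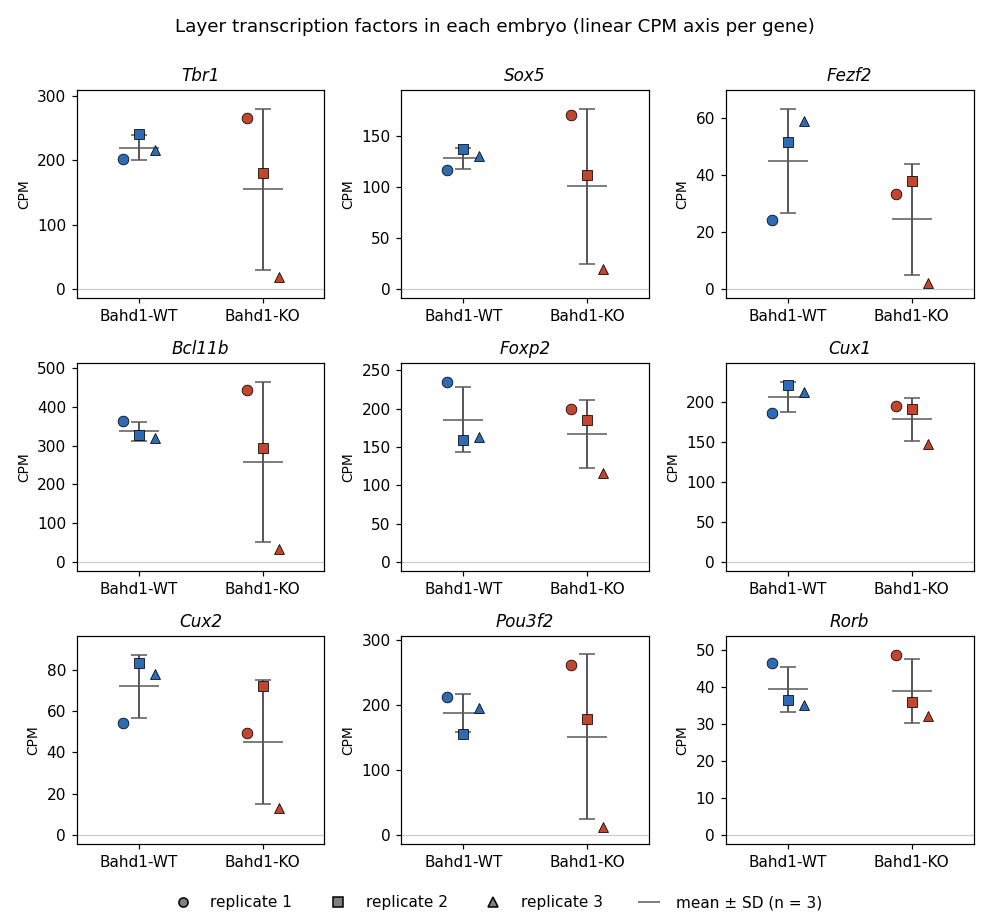
CPM (vertical axis, linear, one scale per gene) of each factor in the 3 Bahd1-WT (blue) and 3 Bahd1-KO (red) embryos, with marker shape for the replicate number and bars for mean ± SD. For Tbr1, Sox5, Fezf2, Bcl11b, Cux2 and Pou3f2, Bahd1-KO replicate 3 (red triangle) lies far under every other embryo, while Bahd1-KO replicates 1 and 2 lie in or near the range of the Bahd1-WT embryos.

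Tbr1 (chromosome 2, 61802930 to 61814114, forward strand, GRCm38 as are all positions here) encodes a T-box factor needed for layer VI identity. Counts of 16403, 13758 and 1525 were found in Bahd1-KO replicates 1, 2 and 3, against 18527, 19609 and 19739 in Bahd1-WT, or 266, 179.9 and 19.3 CPM against 202, 240.4 and 216 CPM. One Bahd1-KO embryo was above all Bahd1-WT embryos, another a little below them and the third far below. The means were 155 ± 125 CPM and 219 ± 19.5 CPM (SD, n = 3 each), and the log2 fold change came to -0.47 (SE 0.661, 95% interval -2.02 to 1.09, adjusted p 0.812, edgeR). Without Bahd1-KO replicate 3 it was 0.00 (SE 0.222, 95% interval -0.51 to 0.52). In bulk RNA, fewer cells of a type and less RNA per cell cannot be told apart, here or for the other factors.

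Sox5 (chromosome 6, 143828425 to 144781977, reverse strand) encodes an SRY-box factor that controls the order in which deep-layer neurons are specified. It showed the same arrangement of embryos as Tbr1, with 170.4, 111.7 and 19.4 CPM in Bahd1-KO replicates 1, 2 and 3, against 116.5, 137 and 130.3 CPM in Bahd1-WT. The log2 fold change came to -0.30 (SE 0.549, adjusted p 0.859, edgeR) with all embryos and 0.12 (95% interval -0.41 to 0.65) without Bahd1-KO replicate 3.

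Fezf2 (chromosome 14, 12342094 to 12348189, reverse strand), the zinc finger selector gene of corticospinal neurons, had the largest genotype difference of the 9 and also the widest spread among Bahd1-WT embryos relative to its mean. Counts were 2048, 2886 and 165 for Bahd1-KO, against 2222, 4199 and 5386 for Bahd1-WT, or 33.2, 37.7 and 2.09 CPM against 24.2, 51.5 and 59.0 CPM. Bahd1-WT replicate 1 lay below both Bahd1-KO replicates 1 and 2, so that the genotypes overlapped with and without Bahd1-KO replicate 3. The log2 fold change came to -0.86 (SE 0.786, adjusted p 0.721, edgeR) over all embryos and -0.35 (95% interval -1.16 to 0.46) without that embryo.

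Bcl11b (chromosome 12, 107910403 to 108003602, reverse strand) acts downstream of Fezf2 in layer V and is also a factor of striatal projection neurons. It had 443, 294 and 34.5 CPM in Bahd1-KO replicates 1, 2 and 3, against 364, 326 and 319 CPM in Bahd1-WT. Again Bahd1-KO replicate 1 was the highest of the 6 embryos and Bahd1-KO replicate 3 the lowest. With all embryos Bcl11b had a log2 fold change of -0.35 (SE 0.647, adjusted p 0.857, edgeR), and without Bahd1-KO replicate 3 of 0.11 (95% interval -0.42 to 0.64).

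Foxp2 (chromosome 6, 14901349 to 15441977, forward strand) is a forkhead factor of layer VI, the striatum and the thalamus. Once scaled with TMM factors, it was the 1 deep-layer factor not scarce in Bahd1-KO replicate 3. The embryos had 199, 186 and 117 CPM in Bahd1-KO, against 235, 159 and 164 CPM in Bahd1-WT. On this scale Bahd1-KO replicate 3 was below every other embryo. Which cells or tissue this RNA came from was not tested. With TMM factors, Bahd1-KO replicate 3 (171) was inside the range of the other 5 (147 to 225), and the log2 fold change was 0.02 with all embryos (95% interval -0.59 to 0.62, adjusted p 0.984, edgeR) and 0.02 without it (-0.54 to 0.58).

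Of the upper-layer factors, Cux1 and Rorb were not scarce in Bahd1-KO replicate 3 once scaled with TMM factors, while Cux2 and Pou3f2 were. Cux1 (chromosome 5, 136248135 to 136567490, reverse strand), a cut homeodomain factor, had 195, 192 and 148 CPM in Bahd1-KO, against 186, 222 and 212 CPM in Bahd1-WT. The log2 fold change of Cux1 was -0.00 (SE 0.220, 95% interval -0.52 to 0.51, adjusted p 0.995, edgeR) and -0.12 (-0.53 to 0.30) without Bahd1-KO replicate 3. Rorb (chromosome 19, 18930605 to 19111196, reverse strand), a nuclear receptor of layer IV, had 48.7, 35.9 and 32.1 CPM in Bahd1-KO, against 46.4, 36.6 and 35.1 CPM in Bahd1-WT. In CPM, replicate 1 was the highest embryo of each genotype for Rorb, and Bahd1-KO replicate 3 was below every other embryo. With TMM factors, Bahd1-KO replicate 3 (46.9) was instead above Bahd1-KO replicate 1 (45.9). The log2 fold change of Rorb was 0.19 (SE 0.267, 95% interval -0.44 to 0.81, adjusted p 0.815, edgeR) and 0.08 (-0.50 to 0.66) without Bahd1-KO replicate 3.

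Cux2 (chromosome 5, 121856366 to 122050102, reverse strand), the close relative of Cux1 that is more restricted to upper layers, had 49.3, 72.4 and 12.9 CPM in Bahd1-KO, against 54.4, 83.1 and 78.2 CPM in Bahd1-WT. Replicate 1 was lower than replicate 2 in both genotypes. Cux2 had a log2 fold change of -0.61 (SE 0.445, adjusted p 0.696, edgeR), which came to -0.26 (95% interval -0.86 to 0.34) without Bahd1-KO replicate 3. Its unadjusted p of 0.212 was the smallest of the 9. Pou3f2 (chromosome 4, 22482780 to 22488366, reverse strand), a POU homeodomain factor of late progenitors and migrating upper-layer neurons, had 262, 178 and 12.997 CPM in Bahd1-KO, against 212, 156 and 196 CPM in Bahd1-WT. For Pou3f2 the log2 fold change came to -0.30 (SE 0.754, adjusted p 0.895, edgeR), or 0.20 (95% interval -0.36 to 0.77) without Bahd1-KO replicate 3.

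**Figure D2:**
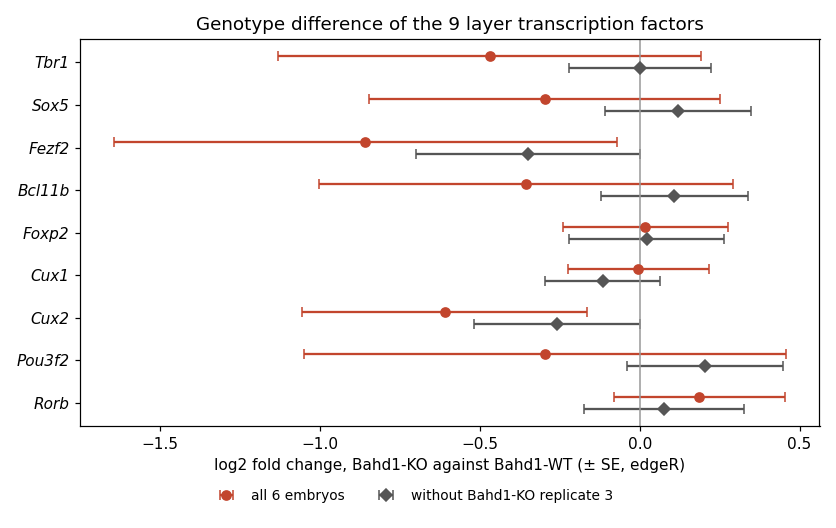
Log2 fold change of Bahd1-KO against Bahd1-WT (horizontal axis) for each factor, with bars of ± 1 SE from edgeR, over all 6 embryos (red circles) and without Bahd1-KO replicate 3 (grey diamonds). With all embryos the values run from -0.86 for Fezf2 to 0.19 for Rorb, and without that embryo from -0.35 to 0.20.

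Counted together, 0 of the 9 factors passed the adjusted threshold, where 0.00404% of all genes tested were called, and 0 of 9 were at an unadjusted p under 0.05, where 4.67% of all genes were. Without Bahd1-KO replicate 3 the counts were again 0 of 9, with 0.0171% of genes called (4 of 23334) and 1.48% at an unadjusted p under 0.05. In CPM the genotypes overlapped for all 9, with or without that embryo, where 6.06% and 11.3% of all genes did not overlap. With all embryos 7 factors were lower and 2 higher in the knockouts, the median log2 fold change being -0.30 (all genes 0.06), a direction that turned with scaling to the neuronal markers, where 8 of the 9 were higher and all genes had a median of 1.51. Without Bahd1-KO replicate 3 the count turned to 3 lower and 6 higher, with a median of 0.02 (all genes -0.01). Leaving out Bahd1-KO replicate 1 or 2 instead gave a median of -0.87 or -0.43. Without Bahd1-KO replicate 3, the 95% intervals of all factors other than Fezf2 and Cux2 lay within -0.54 to 0.77 on the log2 scale, which does not show that the genotypes were alike.

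Bahd1-KO replicate 3 had most, but not all, of the layer factors at a small share of their level elsewhere. With TMM factors, it held 8.07% of the mean of the other 5 for Fezf2, 10.2% for Pou3f2, 13.8% for Tbr1, 15.6% for Bcl11b, 22.9% for Sox5 and 30.4% for Cux2. These 6 factors were at least 2-fold below the lowest of the other 5 embryos, from 2.45-fold for Cux2 to 7.59-fold for Fezf2. Of all genes with a mean of at least 10 TMM-scaled CPM, 14.2% (1445 of 10166) were that far below in this embryo, and 8.88% were at least 2-fold above the other 5. The remaining 3 factors were Foxp2 at 97.4% of the mean of the other 5, Cux1 at 116% and Rorb at 124%, the last 2 above each of the other 5 embryos.

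The ratio of one factor's counts to another's within an embryo does not depend on scaling between embryos. Tbr1 over Bcl11b was 0.560 in Bahd1-KO replicate 3 and 0.554 to 0.737 in the other 5, so this pair kept its proportion. Sox5 over Tbr1 was 1.00 against 0.571 to 0.641, Foxp2 over Bcl11b was 3.38 against 0.450 to 0.645, and Cux2 over Cux1 was 0.0874 against 0.252 to 0.377. The paralogous POU factors Pou3f2 and Pou3f3 had a ratio of 0.518 against 0.522 to 0.724. Among the other 5 embryos these ratios overlapped between the genotypes, as did Fezf2 over Tbr1 (0.125 and 0.210 in Bahd1-KO replicates 1 and 2, and 0.120 to 0.273 in Bahd1-WT), except that Sox5 over Tbr1 was 0.641 and 0.621 in Bahd1-KO replicates 1 and 2 and 0.571 to 0.602 in Bahd1-WT. For comparison, 11.3% of all genes did not overlap between the genotypes in CPM without Bahd1-KO replicate 3. The gap in Sox5 over Tbr1 is therefore not read as a genotype difference. No ratio was tested.

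Markers of the brain and of other tissues also set this embryo apart. The 8 dorsal telencephalon markers, which define the part of the forebrain where the cortex forms, summed to 190.2 TMM-scaled CPM in Bahd1-KO replicate 3 and 881 to 1334 in the other 5, and 7 of the 8 were below the other 5. Neurod6, a factor of cortical projection neurons, had 33.7 against 459 to 736. The eighth, the vesicular glutamate transporter gene Slc17a7, was above all of them, at 88.8 against 18.3 to 31.2. The 8 neuronal markers summed to 2229 against 8051 to 9886, with Dcx, a marker of young migrating neurons, at 33.0 against 1865 to 3713 and Map2, a dendritic protein gene, at 780.0 against 1983 to 3033. Of these 8 markers, 5 were below each of the other 5 embryos. Syp (274 against 211.5 to 290.8) and Rbfox3 (54.8 against 48.5 to 92.5) lay in the range of the other 5. The synaptic gene Snap25 was instead above all other embryos, at 909.7 against 154 to 285.

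Other brain regions differed in their markers as well. The 6 thalamic markers summed to 130.2 against 601 to 789 TMM-scaled CPM, with Tcf7l2 at 30.5 against 240.1 to 287 and Slc17a6 at 50.4 against 147 to 235. The 8 striatal markers summed to 220.3 against 235 to 299, just under the range of the other 5. Among them Ebf1, a factor of striatal projection neurons, had 38.2 against 76.5 to 110.4. Markers of tissues outside the brain summed to more in this embryo than in any of the other 5. The 5 lung markers summed to 1257 against 13.7 to 26.6, and the surfactant gene Sftpc alone had 828 against at most 2.66, while Nkx2-1, which is also a ventral forebrain gene, had 180.5 against 13.3 to 23.5. The 6 markers of skeletal muscle summed to 67.9 against 1.91 to 9.91 (Myh8 28.5, Tnnt3 15.2), those of cartilage and bone to 53.0 against 12.6 to 34.8 (Col2a1 22.3, Col9a1 17.5) and the 5 blood markers to 188 against 44.3 to 173 (Hbb-bt 58.5, Hba-a1 25.8). No marker of any list was at 0 in all embryos. The part of these differences in the layer factor values was not tested.

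**Figure D3:**
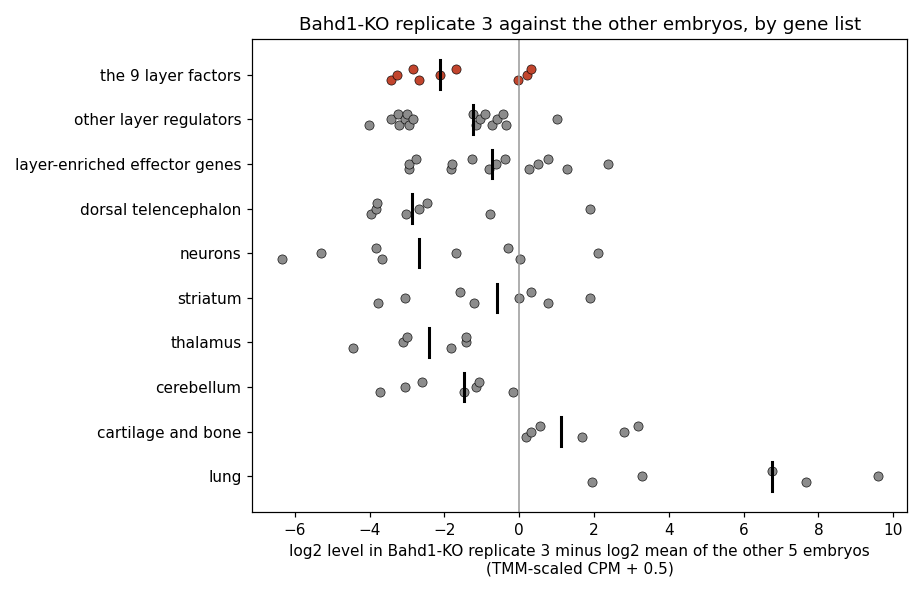
Log2 level in Bahd1-KO replicate 3 minus the log2 mean of the other 5 embryos (horizontal axis, TMM-scaled CPM + 0.5), 1 point per gene and a black bar at the median of each list. Of the 9 layer factors (red), 6 lie more than 1 unit to the left, as do most dorsal telencephalon, neuron and thalamus markers, while the 5 lung markers lie to the right.

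Other regulators of layer identity were counted in the same way. The list of 17 held 0 genes at an unadjusted p under 0.05 in either direction, with 14 lower and 3 higher in the knockouts and a median log2 fold change of -0.31, and without Bahd1-KO replicate 3 there were 7 lower and 10 higher with a median of 0.01. Bcl11a, the paralog of Bcl11b, had 43.1 TMM-scaled CPM in Bahd1-KO replicate 3 against 272 to 371 in the other 5 (log2 fold change -0.42), and Pou3f3, the paralog of Pou3f2, 36.7 against 258 to 343 (-0.45). The homeobox genes Otx1 (0.945 against 9.88 to 16.6) and Lhx2 (4.32 against 46.4 to 107) had log2 fold changes of -0.69 and -0.68.

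Not every regulator was scarce in Bahd1-KO replicate 3. At least 2-fold below each of the other 5 embryos were 9 of the 17, and below all of them by any margin 15 of the 17. Mef2c, a MADS-box factor of cortical neurons that also serves muscle, the heart and blood vessels, had 200.2 TMM-scaled CPM against 178 to 418 and stayed in the range of the others. Etv1, an ETS factor of layer V that other tissues use too, had 123 against 41.9 to 85.7.

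The 14 effector genes enriched in cortical layers, such as adhesion and signalling genes, were more mixed. Again 0 of 14 were at an unadjusted p under 0.05, with 9 lower and 5 higher in the knockouts, the median log2 fold change being -0.15. Without Bahd1-KO replicate 3 the split was 7 and 7, with a median of 0.02. Scaling to the neuronal markers turned the medians with all embryos to 1.23 for the effector genes and 0.72 for the other regulators, both below that of all genes. In that embryo 5 of the 14 were at least 2-fold below the other 5. Mdga1, an adhesion gene of upper-layer neurons, had 12.4 TMM-scaled CPM against 58.0 to 129.6, and Cdh13, a cadherin gene of corticospinal neurons, 21.7 against 117 to 186. The ligand gene Kitl had 154 against 184 to 387, and Ldb2, a LIM-domain cofactor of layer V, 69.9 against 78.2 to 102. Ctgf, which marks the subplate in cortex and connective tissue elsewhere, had 55.1 against 8.78 to 11.4, with a log2 fold change of 1.41 (SE 0.657, unadjusted p 0.0683, edgeR), and 0.18 without that embryo. Cplx3, another subplate marker, was low in all embryos, at 1.33 against 0.214 to 0.306.

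Among the other 5 embryos, Bahd1-KO replicate 1 had the highest TMM-scaled level of Tbr1 (250.4), Sox5 (160.5), Bcl11b (418), Pou3f2 (247) and Rorb (45.9), and also of Neurod6 (736). In the same embryo the 7 cerebellar markers summed to 5.69 TMM-scaled CPM, against 38.8 to 54.4 in Bahd1-KO replicate 2 and the Bahd1-WT embryos, with En2 at 0.672 and Barhl1 at 1.28 against 7.68 to 13.02 and 8.44 to 16.4. The 6 hindbrain markers summed to 0.0763, against 1.17 to 9.90 in those 4 embryos, and the hindbrain genes Hoxb3 and Hoxa3 had no count in it. In Bahd1-KO replicate 3 the cerebellar markers summed to 6.25 and the hindbrain markers to 58.3, with Hoxb3 at 24.1 and Hoxa3 at 11.1. How far the amount of hindbrain and cerebellum in a sample enters the layer factor levels was not tested.

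Replicate 1 of each genotype also differed from its group by the GC content of the transcripts. Across 10162 genes with a mean of at least 10 TMM-scaled CPM, the difference of Bahd1-WT replicate 1 from the mean of Bahd1-WT replicates 2 and 3 had a correlation of -0.81 with transcript GC, and that of Bahd1-KO replicate 1 from replicate 2 one of -0.80. These are correlations across genes, which share libraries and are not replicates. In the quintile of genes poorest in GC the median difference was 0.44 in Bahd1-WT and 0.41 in Bahd1-KO on the log2 scale, and in the richest quintile -0.68 and -0.83. The layer factors spanned this range, from Rorb (41.6% GC), Foxp2 (42.6%), Pou3f2 (44.4%) and Sox5 (44.8%) over Cux1 (49.95%), Bcl11b (50.1%) and Tbr1 (51.9%) to Cux2 (55.5%) and Fezf2 (55.9%).

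In Bahd1-WT, the GC-poorest and GC-richest factors differed with the sign of other genes of like GC, but Sox5 did not. Bahd1-WT replicate 1 was above the other Bahd1-WT embryos by 0.61 for Foxp2 and 0.44 for Rorb, and below them by log2 differences of -0.49 for Cux2 and -1.10 for Fezf2. For Sox5 the difference was -0.13, where the median of its GC quintile was 0.23. Between Bahd1-KO replicates 1 and 2, Cux2 differed by -0.49 and Fezf2 by -0.13, where the median of their GC quintile was -0.83. Pou3f2 and Tbr1 each differed by 0.62, where the medians of their quintiles were 0.25 and -0.25. Tbr1 thus had the opposite sign to other genes of like GC. With each embryo corrected for GC and Bahd1-KO replicate 3 left out, the log2 fold changes of Fezf2 and Cux2 were 0.03 and 0.02, against -0.35 and -0.26 without the correction. Those of Sox5 (0.12 to -0.01), Pou3f2 (0.20 to 0.08) and Cux1 (-0.12 to -0.06) also moved towards 0, while Tbr1 (0.00 to 0.16), Bcl11b (0.11 to 0.17), Foxp2 (0.02 to -0.12) and Rorb (0.08 to -0.11) moved away from it.

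**Figure D4:**
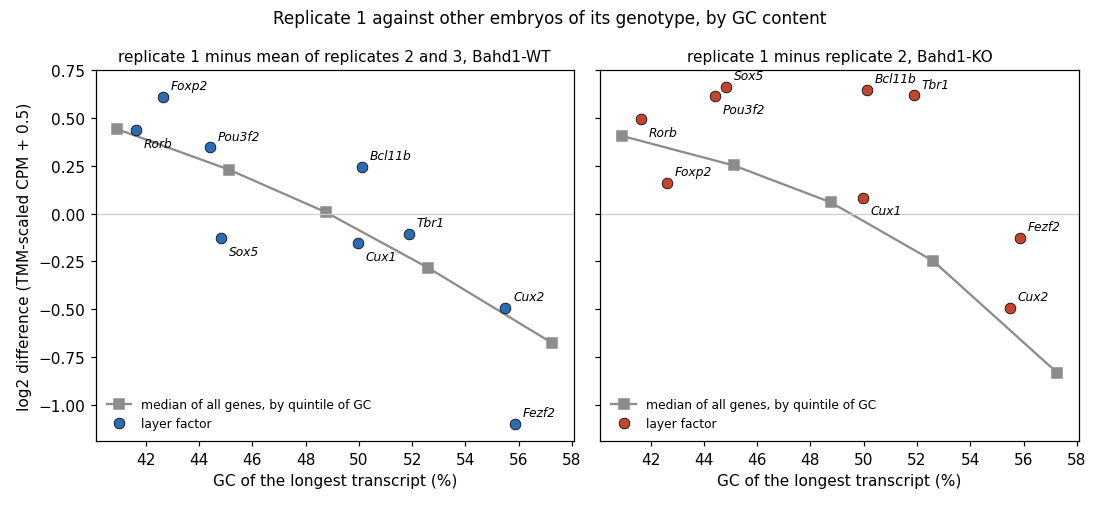
Log2 difference of replicate 1 from other embryos of its genotype (vertical axis, TMM-scaled CPM + 0.5) against the GC content of each gene's longest transcript (horizontal axis, %), in Bahd1-WT (left, blue) and Bahd1-KO (right, red). Grey squares are the medians of all genes by quintile of GC, which run from 0.44 to -0.68 in Bahd1-WT and from 0.41 to -0.83 in Bahd1-KO, and circles are the 9 factors.

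The genes whose levels over the 6 embryos were most like the mean of the 9 factors were sought among all non-members with a mean of at least 10 CPM, by the root mean squared difference of centred log2 levels. They were Usp49 (0.0255), E130307A14Rik (0.0491), Slain1 (0.0544), Zfp518b (0.0580) and Pogk (0.0632). Usp49, for example, had 62.9, 53.2 and 18.1 TMM-scaled CPM in Bahd1-KO replicates 1, 2 and 3, against 57.0, 59.3 and 57.4 in Bahd1-WT. The factors themselves lay farther from their own mean on the same measure, from 0.190 for Sox5 to 0.777 for Rorb, so the mean profile describes no single factor closely. The mean of the 9 had a centred log2 level of -1.42 in Bahd1-KO replicate 3 and of 0.13 to 0.43 in the other 5.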

How the data were processed

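Values were the deposited read counts per gene, neither normalised nor filtered, with a column for each embryo. The authors purified polyadenylated RNA, built stranded TruSeq libraries and counted reads over exons of Ensembl genes on GRCm38. The submitters' processing notes name cutadapt 1.11, STAR 2.5.0a and featureCounts 1.4.6-p3. The methods also name TopHat2, and which aligner made this table is not stated.

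Genes reaching 10 counts over the embryos were tested with edgeR 4.0.16 (R 4.3.3) by the quasi-likelihood test, two-sided, with TMM factors and a model of genotype alone, and p-values were adjusted by Benjamini-Hochberg over all 24739 genes. Standard errors and 95% intervals came from this fit. Positions, exon lengths and GC came from GENCODE M21 and promoter windows from RefSeq (GRCm38.p6). Pseudocounts of 0.5 CPM were added before log2. DESeq2 1.42.0 and limma 3.58.1 (voom) served as alternatives.

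Members, gene lists and alternatives were chosen with earlier results of these data known. Named were the 9 factors, Bahd1, for the other layer regulators and the effector genes any at an unadjusted p under 0.05, the 3 of highest mean CPM and the 3 of largest change, the 2 highest of each marker list, and the 5 genes nearest the mean profile. Some genes that this rule names are not reported here. Etv1, Snap25 and Slc17a7 were added after their values were seen. The scaling by dorsal telencephalon markers, the GC correction (lowess span 0.3) and DESeq2 without Bahd1-KO replicate 3 were also chosen after seeing the data.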

Additional observations from a re-analysis of the deposited data

How the results depend on the processing

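Of the 9 factors 0 were called in any of the 23 alternatives, and 0 were at an unadjusted p under 0.05 in any of them. Of 207 values 48 had the opposite sign, 11 of them for Cux1, whose value was near 0. Most of the others came from the fits without Bahd1-KO replicate 3. Fewer came from the marker scalings, which shifted the median of all genes, and the rest from other settings. The number of genes called was 8 with DESeq2, 6 with voom and quality weights, 11 with DESeq2 without the embryo Bahd1-KO 3 and 6 with GC correction without it. It was 0 with edgeR for genes with at least 10 counts in every embryo (452 at an unadjusted p under 0.05), a filter that removes Bahd1 itself, and 0 with neuron-marker factors (5402), with dorsal telencephalon factors (4068) and with ribosomal, mitochondrial and small RNA genes left out (1055), and 0 to 4 with 1 embryo left out. The log2 fold change of Bahd1 lost its call at -6.98 (neuron-marker factors), -6.99 (dorsal telencephalon factors), -8.49 (replicate block) and -8.41 (ribosomal, mitochondrial and small RNA genes left out), and ran from -8.78 to -8.01 with 1 embryo left out, losing its call in all but the fit without Bahd1-KO replicate 3. Apart from that filter, the cause was not tested.

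Same-numbered embryos had correlations of 0.26, 0.34 and -0.12 in their deviations from the genotype means. The Bahd1-KO mean includes Bahd1-KO replicate 3, so these values cannot decide whether same-numbered embryos share more than a number. Both replicate 1 embryos also differed from their groups by transcript GC, as given above. The main model used genotype alone. The number called under the replicate block was 0 in edgeR (517 with unadjusted p under 0.05). Without the embryo Bahd1-KO 3 it was 16 with the replicate block and 4 with genotype alone. The SE of the Bahd1 log2 fold change was then 0.281 and 0.593. Not every embryo correlated best with its own number. With 1 embryo left out, log2 fold changes ran from -1.09 to 0.0013 for Tbr1, -0.87 to 0.12 for Sox5, -1.31 to -0.35 for Fezf2, -0.98 to 0.11 for Bcl11b, -0.10 to 0.22 for Foxp2, -0.12 to 0.031 for Cux1, -1.06 to -0.26 for Cux2, -0.96 to 0.20 for Pou3f2 and 0.08 to 0.31 for Rorb, and the median of the 9 from -0.87 to 0.02.

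Scaling to neuron markers or to dorsal telencephalon markers moved the median of all genes from 0.06 to 1.51 and 1.38, upper-quartile factors to 0.17 and total counts to -0.11. Signs turned with neuron markers for Bcl11b (0.33), Cux1 (1.67), Cux2 (0.34), Pou3f2 (0.25), Sox5 (0.51) and Tbr1 (0.19), and with dorsal telencephalon markers for Bcl11b (0.020), Cux1 (1.57), Cux2 (0.21) and Sox5 (0.26), all below the median of all genes but Cux1. With total counts Foxp2 was -0.15 and Rorb -0.019. Cux1, at -0.00, was 0.049 with filterByExpr and with 10 counts in every embryo, 0.0097 with DESeq2 and with its size factors, 0.11 with upper-quartile factors and 0.12 with GC correction, where Foxp2 was -0.12. With voom, Bcl11b was 0.053, Pou3f2 0.20 and Sox5 0.0054, and 33.4% of those with unadjusted p under 0.05 were higher in the knockouts, against 96.5% with edgeR. Without the embryo Bahd1-KO 3, the replicate block gave Bcl11b 0.023, Foxp2 -0.051, Pou3f2 0.20, Rorb -0.025 and Sox5 0.081, DESeq2 gave Bcl11b 0.11, Pou3f2 0.20, Sox5 0.12 and Tbr1 0.0043, and GC correction gave Bcl11b 0.17, Cux2 0.017, Fezf2 0.025, Foxp2 -0.12, Pou3f2 0.075, Rorb -0.11 and Tbr1 0.16. Every factor had at least 165 counts in every embryo, so counting error was small beside the spread between embryos.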
